A study of Mus musculus with 15 samples.

Results

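αTN4 cells are mouse lens epithelium made permanent by SV40 T antigen. Of the 66274 H3K4me2 peaks of control αTN4 cells, 28870 (43.6%) overlapped an H3K4me2 peak of Pax6 knockdown (KD) αTN4 cells by at least 1 bp and no H3K4me2 peak of newborn lens. These peaks are called stable peaks absent from lens. They were chosen by their H3K4me2 in those 3 libraries, so their H3K4me2 values are given as a description only, while Pol2, H3K4me1, H3K4me3, Pax6, genes and sequence were not used in the choice. The nearest comparison is the 25774 control peaks that were stable after Pax6 KD and also present in lens.

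The control αTN4 cells carried a control shRNA and the Pax6 KD cells the shRNA called sh2. Both were puromycin-selected populations infected with lentivirus and not single clones. RNA polymerase II (Pol2), Pax6, H3K4me1, H3K4me2 and H3K4me3 were profiled in control cells, the 3 methylation marks in Pax6 KD cells, and H3K4me2 in lens of 1-day-old CD-1 mice. Each condition has 1 library among the samples, although the names of the control H3K4me2 peaks hint at pooled replicates for that list. No difference below has a replicate check, and the 95% Wilson intervals in parentheses cover counting error only. Fewer of the listed lens genes had an H3K4me2 peak near a start in the line than in lens. A peak of control αTN4 cells lay within 2 kb of a start at 5 of 16 crystallin genes and 16 of 21 lens transcription factor genes. With the lens peaks the numbers were 11 and 21, and Pol2 of control cells was at 2 and 15. The line is of lens epithelium and the lens library of lens tissue, so these counts do not measure lens identity. The depth of the peak libraries is unknown, and a region without a lens peak may carry H3K4me2 below the limit of that list or in few cells of the tissue.

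H3K4me2 marks both promoters and enhancers. At active promoters it is found beside H3K4me3 and Pol2, whereas distal enhancers carry H3K4me1 and little H3K4me3. AP-1, a dimer of Fos and Jun family proteins that binds the 7 bp word TGANTCA, is a common component of enhancers in cultured, growth factor-stimulated and transformed cells.

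Most stable peaks absent from lens were distal, and 30.1% of the distal ones held an AP-1 word near their middle, against 25.7% of all distal control peaks. Around the summit the shares were close, at 17.5% and 16.8%. The windows below show such words, in capitals, in distal members of the groups of neighbouring peaks described further on. Each window has 61 bases of the plus strand of mm9, outside annotated exons, from the strongest member of its group that held the word within 150 bp of its middle.
Cald1 group, chr6:34558780-34558840: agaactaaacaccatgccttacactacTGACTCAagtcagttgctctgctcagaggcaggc
group next to Col5a1, chr2:27690350-27690410: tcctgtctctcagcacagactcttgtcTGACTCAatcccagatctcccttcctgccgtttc
Pacsin2 group, chr15:83308985-83309045: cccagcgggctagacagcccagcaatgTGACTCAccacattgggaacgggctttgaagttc
Snai1 group, chr2:167376032-167376092: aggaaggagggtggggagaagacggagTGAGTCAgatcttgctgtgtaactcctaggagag
group on chromosome 3, chr3:41046243-41046303: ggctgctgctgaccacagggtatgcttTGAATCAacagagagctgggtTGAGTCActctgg
The last window holds 2 words. The word was found in 2 of 14 distal members of the Cald1 group, 5 of 15 of the Col5a1 group and 5 of 12 of the Pacsin2 group. It was in 1 of 14 of the Snai1 group and 4 of 14 of the chromosome 3 group. Among groups described further on but not shown, it was in 2 of 15 distal members at Fam5c and 1 of 16 near Cdkn2b. In the group on chromosome 13 it was in 3 of 14, so most members of all these groups had none in that window.

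A minority of the stable peaks absent from lens lay over gene starts that also carried H3K4me3 and Pol2. Several of these genes are known as interferon or inflammatory genes. The sequences below are the 150 bases before the most upstream such start of 4 of them, 5′ to 3′ in the direction of transcription. Capitals mark the AP-1 word, the word GAAANNGAA, which is part of the interferon-stimulated response element, and the word GGGANNTTC, which is part of the NF-κB site, each on either strand.
Zbp1, minus strand, chr2:173044425-173044574: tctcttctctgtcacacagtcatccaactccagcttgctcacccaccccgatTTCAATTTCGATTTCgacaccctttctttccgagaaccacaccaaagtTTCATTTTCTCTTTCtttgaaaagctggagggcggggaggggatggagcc
Gbp2, plus strand, chr3:142283416-142283565: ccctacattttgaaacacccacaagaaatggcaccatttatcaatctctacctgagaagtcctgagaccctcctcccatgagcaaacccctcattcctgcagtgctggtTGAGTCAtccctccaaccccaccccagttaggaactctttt
Ccl7, plus strand, chr11:81859064-81859213: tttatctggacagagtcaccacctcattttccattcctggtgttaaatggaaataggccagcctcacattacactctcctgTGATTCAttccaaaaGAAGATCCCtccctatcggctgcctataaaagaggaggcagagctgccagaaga
Ifi27l1, plus strand, chr12:104672271-104672420: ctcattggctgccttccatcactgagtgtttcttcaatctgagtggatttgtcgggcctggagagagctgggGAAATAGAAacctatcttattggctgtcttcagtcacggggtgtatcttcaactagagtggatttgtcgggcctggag
Zbp1 shows 4 overlapping or neighbouring matches to the first of these response element words, Gbp2 a single AP-1 word, Ccl7 an AP-1 and an NF-κB word, and Ifi27l1 a single response element word. The upstream sequences of 12 genes with an active start of this kind were read and these 4 were picked from those with a word, while 7 of the 12, Ccl2 and Spp1 among them, held none of the 3 words in these 150 bases. These matches are descriptions of the letters and not measured binding sites.

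The stable peaks absent from lens were mostly peaks of middle strength. Their median H3K4me2 fold enrichment over background was 5.93, with quartiles of 4.56 and 8.16, and their median width was 824 bp. Stable peaks also in lens had a median fold enrichment of 14.6 and a median width of 1340.0 bp, and control peaks that were neither kept after Pax6 KD nor in lens had 3.95 and 329 bp. Across deciles of fold enrichment, the share of control peaks that were stable and absent from lens was 38.8% in the lowest decile, highest in the fifth at 72.8%, and 2.85% in the highest. In Pax6 KD cells, the strongest overlapping peak of each member ranked a median of 2.01 percentile points lower in its own list (-2.01), against -1.70 for peaks also in lens. Because strength differs between these groups of peaks, marks at distal peaks are also given by quartile of fold enrichment below.

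The limits of the choice were narrow for some members. A member nearest to the Asap1 start on chromosome 15 touched a lens peak without sharing a base, and members near Acox3 and Tpra1 lay 1 bp from one. Just outside, a peak near Asb5 shared 2 bp with a lens peak and peaks near Gpx5 and Nr4a2 shared 3 bp. On the side of the KD list, members near Tdp1, Lmo7 and Plod2 shared only 1 bp with a KD peak, and peaks near Nr1h4, Gli3 and Mapre2 touched one without sharing a base. Most members lay farther from lens H3K4me2, with a median gap of 15.2 kb. A lens peak lay within 1 kb of 6.55% of them, within 10 kb of 39.3% and within 100 kb of 90.4%.

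Stable peaks absent from lens were distal. Within 2 kb of a protein-coding start lay 1744 members, or 6.04% (5.77 to 6.32), against 31.5% of all control H3K4me2 peaks and 70.0% (69.4 to 70.6) of the stable peaks also in lens. Members lay over a start itself in 1.57% of cases, where 11.4% of all control peaks did. The summits of 52.2% of the members were between protein-coding genes, 39.7% were in introns and 2.04% in exons, with promoters counted apart. Peaks neither kept after KD nor in lens were placed alike, so this position was not particular to the members. Of those peaks, 5.93% (5.48 to 6.41) lay within 2 kb of a start, 52.1% between genes and 39.7% in introns. The median distance from summit to the nearest start was 31.5 kb for members and 0.861 kb for stable peaks also in lens. With the starts of all annotated transcripts, noncoding ones included, the share within 2 kb was 10.5%, and with protein-coding starts within 1 kb it was 3.67%.

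The marks at these peaks were those of distal elements. H3K4me1 was present at 77.9% (77.4 to 78.3) of the members, against 63.6% of all control H3K4me2 peaks and 48.5% (47.9 to 49.1) of the stable peaks also in lens. Pol2 was present at 6.02% (5.75 to 6.30), against 27.3% of all control peaks and 62.7% (62.1 to 63.2) of those also in lens. H3K4me3 was present at 104 members, or 0.360% (0.297 to 0.436), where the share was 22.7% over all control peaks and 57.4% in peaks also in lens. H3K4me1 without Pol2 and H3K4me3 was found at 72.6% of the members and 15.5% of the peaks also in lens, and 21.2% of the members had none of the 3. Peaks neither kept after KD nor in lens had still less Pol2 and H3K4me3, at 0.686% and 0.0398%, and H3K4me1 at 64.3%. H3K4me1 without Pol2 and H3K4me3 was at 63.8% of them, so this pattern was not particular to the members.

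**Figure D1:**
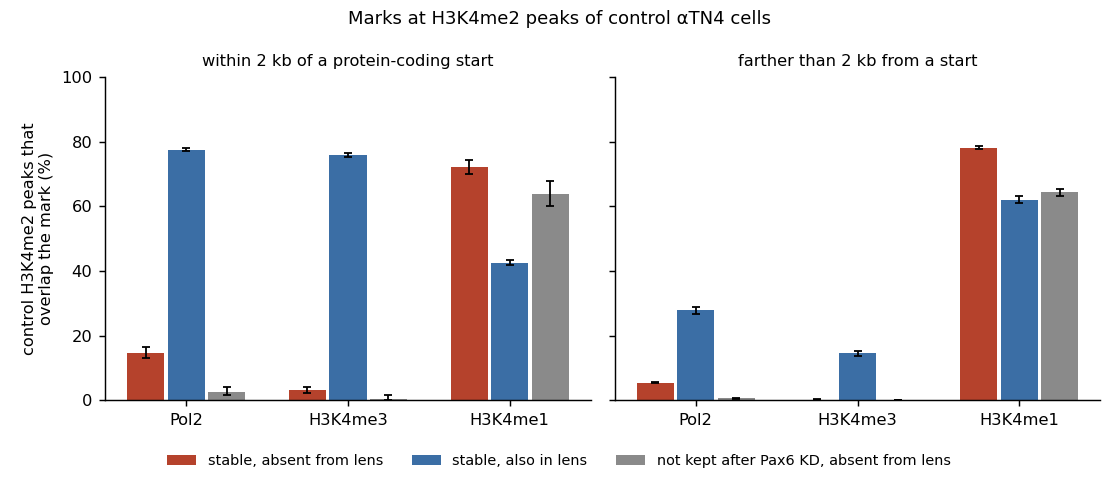
Share of control αTN4 H3K4me2 peaks that overlapped Pol2, H3K4me3 or H3K4me1 (percent), for peaks within 2 kb of a protein-coding start and for peaks farther away; bars show the share in each group of peaks and lines the 95% Wilson interval. Stable peaks absent from lens carried H3K4me1 in 72.2% of promoter and 78.2% of distal cases, and H3K4me3 in 3.10% and 0.184%.

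The differences were also present among distal peaks alone. There, members carried H3K4me1 in 78.2% (77.7 to 78.7) of cases and stable peaks also in lens in 62.1% (61.0 to 63.2), and the share over all distal control peaks was 72.0%. Distal members carried Pol2 in 5.46% (5.19 to 5.73), distal peaks also in lens in 27.8% (26.8 to 28.8) and all distal peaks in 8.16%. H3K4me3 was at 50 of 27126 distal members, or 0.184%, at 14.5% of the distal peaks also in lens and at 2.61% of all distal peaks. Within 2 kb of a start the gap was wider: Pol2 was at 14.7% (13.2 to 16.5) of the members and 77.6% of the peaks also in lens, and H3K4me3 at 3.10% (2.38 to 4.02) and 75.9%.

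Differences were present within quartiles of strength too. In the strongest quartile of distal peaks, with a fold enrichment of at least 8.16, Pol2 was at 16.8% (15.9 to 17.7) of the members and 41.8% (40.3 to 43.2) of the peaks also in lens. In the weakest quartile the shares were 0.582% (0.403 to 0.841) and 2.96% (1.74 to 5.0). H3K4me1 increased with strength among distal members, from 66.0% in the weakest to 92.3% (91.6 to 92.9) in the strongest quartile, while in distal peaks also in lens it was 64.5% (59.9 to 68.8) and 64.8% (63.4 to 66.2). The H3K4me1 intervals of both groups overlapped in the weakest quartile and not in the strongest. Among all members with a fold enrichment at or above the median of the control list, 13.4% carried Pol2, 0.859% H3K4me3 and 88.9% H3K4me1.

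**Figure D2:**
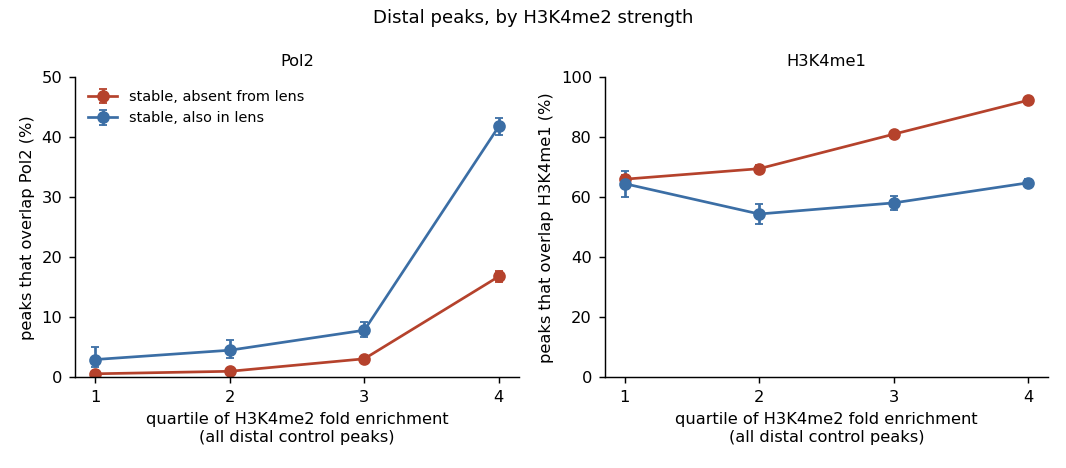
Share of distal control H3K4me2 peaks that overlapped Pol2 (left) or H3K4me1 (right), in percent, by quartile of H3K4me2 fold enrichment over all distal control peaks; points are shares and lines 95% Wilson intervals. Pol2 reached 16.8% of the strongest stable peaks absent from lens and 41.8% of those also in lens, whereas H3K4me1 reached 92.3% and 64.8%.

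After Pax6 KD, H3K4me1 was found at 49.0% (48.5 to 49.6) of the members, against 36.8% of all control H3K4me2 peaks. Of the members with H3K4me1 in control cells, 61.7% (61.1 to 62.3) kept it, against 56.1% of all control H3K4me2 peaks with H3K4me1. Pooled over strength, distal members kept H3K4me1 in 61.7% (61.0 to 62.3) and distal peaks also in lens in 62.1% (60.7 to 63.5). This pooled difference was within the counting error, and the share over all distal peaks was 60%. Within quartiles of strength, gaps in opposite directions were present. In the weakest quartile, members kept H3K4me1 in 55.4% (53.7 to 57.1) and peaks also in lens in 67.8% (62.2 to 73.0). In the strongest, 4577 of 6100 members (73.9% to 76.1%) and 63.1% (61.4 to 64.8) of the peaks also in lens kept it. In the middle quartiles the intervals of both groups overlapped. H3K4me1 of KD cells was at 44.4% of all distal control peaks. Near starts, members kept H3K4me1 in 62.4% (59.6 to 65.0) of cases and peaks also in lens in 38.8% (37.8 to 39.9), and 42.5% of all peaks there did. The KD list held 18417 H3K4me1 islands and the control list 38007. In islands paired 1 to 1 between the lists, those holding only members had a median log2 change in ChIP reads per kb of -0.03, with an interquartile range from -0.25 to 0.19 (7000 islands), relative to the median of all 13763 pairs. Before that centring the median change was -0.31 for ChIP reads and -0.28 for the reads of the control library of SICER, called input reads here although its name is not given in the sources used. H3K4me3 in KD cells was at 0.308% of the members, where 21.3% of all control peaks had it, at 0.140% of distal members against 2.18% of all distal peaks, and 69 of the 104 members with H3K4me3, or 66.3% (56.8 to 74.7), kept it. Over all 15030 control peaks with H3K4me3, 13847 of them near starts, the share kept was 92.1%. Among distal peaks it was 62.0% (48.2 to 74.1) for members and 79.0% for all. Near starts it was 70.4% (57.2 to 80.9) for members and 93.2% for all. In the strongest quartile of distal peaks it was 66.7% (51.6 to 79.0) and 79.7%.

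Pax6 itself was rare at these peaks. It was found at 175 members, or 0.606% (0.523 to 0.703), close to the 0.576% of all control H3K4me2 peaks. Among distal peaks the share was 0.634% (0.546 to 0.736) for members and 1.66% (1.39 to 1.97) for peaks also in lens, where all distal peaks had 0.716%. Of the 504 Pax6 peaks of αTN4 cells, 177 lay in a member. H3K4me1 was at 168 of the 175 members with Pax6 and was kept after KD at 136, Pol2 was at 29, and 3 lay within 2 kb of a start. Over all members, H3K4me1 was at 77.9% and was kept at 61.7% of those, Pol2 was at 6.02%, and 6.04% lay near a start. Of the 172 distal members with Pax6, 94 were in the strongest quartile of fold enrichment. In that quartile, H3K4me1 was at 92.3% and Pol2 at 16.8% of all distal members. The part of peak strength in the counts at Pax6 was not tested. The member with the strongest Pax6 peak (−log10 q of 68.7) lay 10.5 kb from Ranbp6 at chr19:29896924-29898467, with H3K4me2 at 10.3-fold in control and 10.6-fold in KD cells. The next lay 38.8 kb from Spp1, the gene of the matrix protein osteopontin, with a Pax6 −log10 q of 58.0, followed by a member 397 kb from Col12a1 with 54.3, a member 54.2 kb from Tes with 54.2 and a member 14.3 kb from C030046E11Rik with 39.6. All 5 carried H3K4me1 in control and KD cells, and the member near Col12a1 was the only one of them with Pol2.

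The AP-1 word was more frequent in distal members than in distal peaks also in lens, and was not particular to the members. In the 300 bp around the summit, the measure chosen for the main value, it was found in 17.5% (17.0 to 17.9) of the members, close to the 16.8% of all distal peaks. There it was found in 8.67% (8.06 to 9.32) of the peaks also in lens and 22.3% (21.5 to 23.1) of the peaks neither kept after KD nor in lens. In the 300 bp around the middle of the peak, the shares were 30.1% (29.6 to 30.7) in members, 13.4% (12.6 to 14.1) in peaks also in lens, 24.8% (23.9 to 25.6) in peaks neither kept nor in lens and 25.7% in all distal peaks. Windows 2 kb to either side of the peaks held the word in 9.50% (9.25 to 9.75) for members and 8.43% (8.01 to 8.88) for peaks also in lens. The word was densest at the middle of distal members, at 1.47 words per kb, and lower towards both sides. In the weakest quartile of fold enrichment, the shares around the middle were 27.3% (26.1 to 28.6) in members, 25.1% (24 to 26.2) in peaks neither kept nor in lens and 17.3% (14.1 to 21.1) in peaks also in lens, and around the summit 22.9%, 23.6% and 14.4%. In the strongest quartile the shares around the middle were 32.7% (31.5 to 33.8) in members and 13.1% (12.1 to 14.1) in peaks also in lens. Around the summit of the strongest quartile they were 11.6% and 7.39%, so that from the weakest to the strongest quartile the members' share was higher around the middle and lower around the summit.

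**Figure D3:**
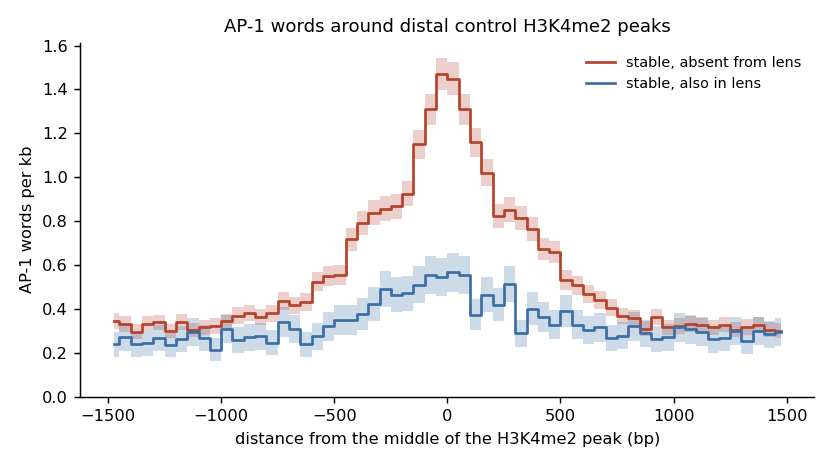
AP-1 words (TGANTCA, both strands) per kb in 50 bp steps of distance from the middle of distal control H3K4me2 peaks 400 to 2000 bp wide; shading is the 95% interval of the counts. The 20579 stable peaks absent from lens reach 1.47 words per kb at the middle, and the 5676 peaks also in lens 0.567.

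Other words differed less. The TEAD word GGAATG, bound by the factors that YAP and TAZ act through, was found around the middle of 23.1% (22.6 to 23.6) of distal members and 19.2% (18.3 to 20.1) of distal peaks also in lens, with 22.0% in all distal peaks. The Runx word TGTGGT was found in 27.2% (26.6 to 27.7) and 19.9% (19.0 to 20.8), with 25.9% in all, although windows 2 kb away held it in 21.6% and 22.4%. The GC-box GGGCGG, common in CpG-rich promoters, was found in 4.28% (4.04 to 4.52) of distal members and 16.0% (15.2 to 16.8) of distal peaks also in lens, with 6.66% in all. GC content differed as well, but was taken in the 300 bp around the summit and not the middle. It was 45.4% (SD 6.21 over peaks) in distal members and 50% (SD 7.76) in distal peaks also in lens. The median number of CpG in that window was 3 and 6, and 10 or more CpG were found in 1.47% and 21.2%. The part of base composition in the differences between words was not tested. Distal members that lost H3K4me1 after KD held the AP-1 word in 34.5% (33.5 to 35.5) of cases and those that kept it in 28.8% (28.1 to 29.6).

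Members often followed each other in the order of control peaks. The next control H3K4me2 peak along the chromosome was itself a member in 56.3% (55.8 to 56.9) of cases after a member and in 27.3% (26.8 to 27.9) after a peak also in lens, where the share after any peak was 43.6%. When members within 12500 bp of each other were joined, 17683 groups resulted. Of these, 566 held at least 5 members and contained 12.4% (12 to 12.8) of all members, with 2.97% at a joining distance of 5 kb and 27.8% at 25 kb. Peaks also in lens, joined in the same way, had 12.1% in groups of 5 or more. Alone at this distance were 39.8% (39.2 to 40.3) of the members and 24.7% (24.2 to 25.2) of the peaks also in lens, and the largest group held 16 of the former and 50 of the latter. The 566 groups had a median length of 25.7 kb, no lens peak was inside 62.4% (58.3 to 66.3) of them, and 41.2% (37.2 to 45.3) overlapped no protein-coding gene.

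The largest groups lay both at genes and far from them. At Cald1, which codes for the actin-binding protein caldesmon, 16 members spanned 77.5 kb at chr6:34515543-34593064, all with H3K4me1 and 1 with Pol2, with 2 lens peaks in the span. A group of 15 members in 75.4 kb, at chr2:27625338-27700690, lay 41.3 kb from the nearest start, had no lens peak inside, and 4 of its members had Pol2. The start nearest to its middle was that of Col5a1, a fibrillar collagen gene, at 78.9 kb. At Pacsin2, a membrane-bending protein of caveolae and endosomes, 15 members spanned 80.1 kb, all with H3K4me1 in control and KD cells, with 2 lens peaks in the span. A group of 14 members in 65.3 kb overlapped Ube2v1 and Snai1, a repressor that drives epithelial-mesenchymal transition, but reached no protein-coding start. The nearest start was 4.32 kb away, and that of Snai1 lay 37.0 kb from the middle of the group. H3K4me1 was at all 14 members in control and KD cells and Pol2 at 5. The span of this group held 5 lens peaks.

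A group of 16 members that overlapped no protein-coding gene lay on chromosome 4, 135 kb from the nearest protein-coding start. Cdkn2b, a cell cycle inhibitor gene, had the start nearest to the middle of the group. All 16 carried H3K4me1 in control cells and 9 in KD cells, and 1 lens peak lay in the span. Groups of 14 on chromosome 13, 310.1 kb from a start, and on chromosome 3, 47.6 kb from a start, contained no lens peak, and H3K4me1 was at all 14 members of each. At Mbp, the myelin basic protein gene, 15 members spanned 62.1 kb and 13 had H3K4me1, with 5 lens peaks in the span. The group at Fam5c stood apart: its 16 members in 38.2 kb, with H3K4me2 folds from 3.09 to 9.19, overlapped no H3K4me1 island and no Pol2 peak. Its span held 2 lens peaks.

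**Figure D4:**
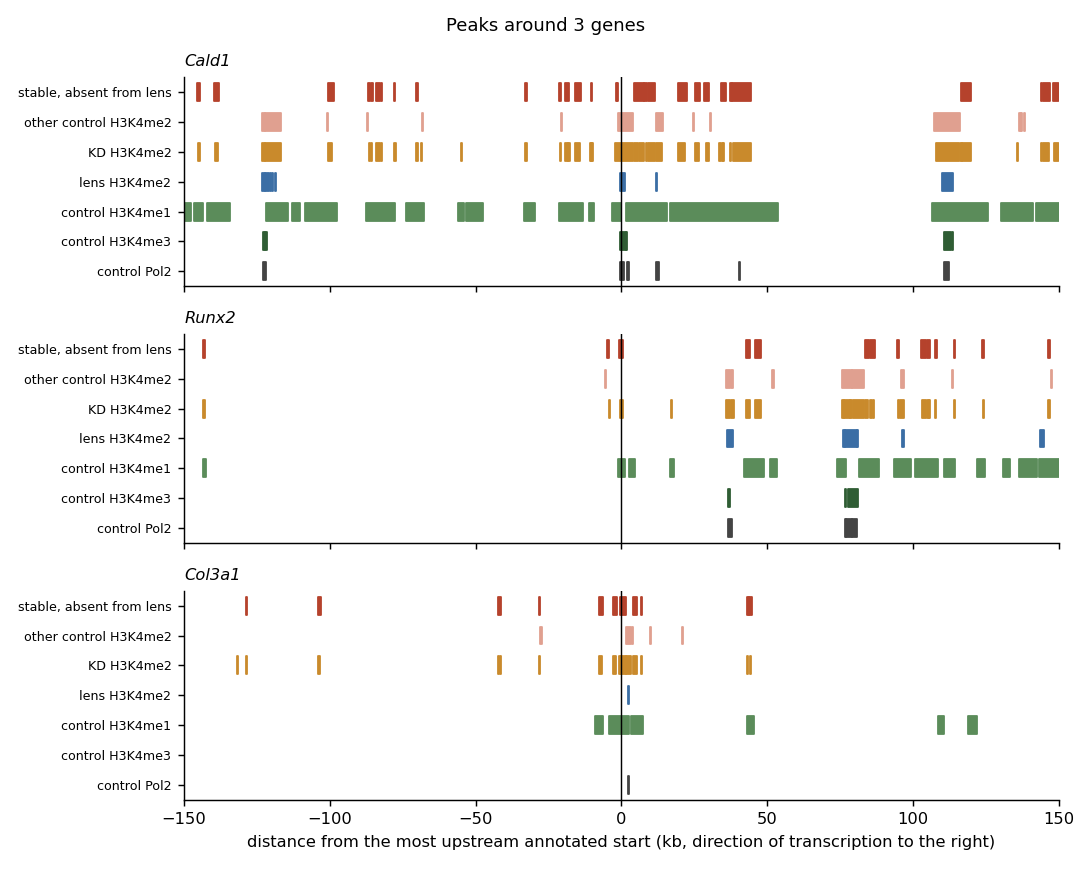
Peaks and islands from 150 kb before to 150 kb after the most upstream annotated start of Cald1, Runx2 and Col3a1 (horizontal axis, kb); each bar is a region of the list named at the left. Stable peaks absent from lens numbered 30 at Cald1, 14 at Runx2 and 11 at Col3a1, where lens H3K4me2 had 8, 6 and 1 peaks.

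Counted by gene body with 2 kb added to either end, 5837 of 22202 protein-coding genes (26.3%) held a member, and long genes held the most. Gm20388 held 118, but its annotated model spans 4435 kb over other genes, as do the models of Fgfr2 (46 members in 3009 kb) and Arfip1 (44 in 1391 kb), so their counts belong to regions and not to single genes. Pde4d, a cyclic AMP phosphodiesterase, held 51 members and 8 peaks also in lens. The kinase gene Mast4 held 27 members, Etl4 25, and the transcription factor gene Ebf1 and the LIM domain gene Lpp 23 each. The 4 genes 1700112E06Rik, 5033411D12Rik, Erc2 and Me3, a malic enzyme, held 22 each. Me3 was the most compact of these, with 9.74 members per 100 kb.

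A member lay within 2 kb of a start at 1542 protein-coding genes, or 6.95% of all. For most of them other peaks were nearby: 880 also had a stable peak shared with lens within 2 kb, as 53.9% of all genes did, and 541 had no lens peak within that distance. Genes with a member over the start itself numbered 443, or 2.0%. Of the 452 members over a start, Pol2 was at 27.4% (23.5 to 31.7) and H3K4me3 at 8.19% (6.0 to 11.1), against 81.9% and 84.7% at the 6935 stable peaks also in lens that lay over a start.

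The gene lists were read against these shares of 6.95% and 26.3%, and bodies are longer in some lists than in others. Of 30 mesenchymal genes, 4 had a member within 2 kb of a start and 19 in the body, with 41.3 members per Mb of gene, where all genes had 13.6. They included the collagen genes Col1a2 (13.1-fold H3K4me2, with Pol2) and Col3a1 (11.3-fold) and Cald1 (9.86-fold). H3K4me2 of control αTN4 cells, of any kind, lay within 2 kb of a start at 27 of these 30 genes and lens H3K4me2 at 28. Among 25 integrin and matrix genes, 20 held members in the body, with 45.1 per Mb, and 3 within 2 kb of a start: Plaur, the urokinase receptor (15.7-fold), Lamb3, a laminin chain (15.2-fold), and Itga2, an integrin (9.31-fold). Itgb5, Itgb6 and the matrix cross-linking enzyme gene Loxl2 each had 10 in the body.

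All 4 Runx genes held members in the body and 3 near a start, with 60.2 members per Mb. The strongest near a start had H3K4me2 at 13.0-fold for Runx1 and 12.7-fold for Runx2, the master factor of bone formation, and that of Runx3 had Pol2 at 8.56-fold. Runx2 held 20 members in its body. Of 13 TEAD and YAP pathway genes, 8 held members in the body and 3 near a start, namely Lats2 (13.8-fold), Tead1 (8.85-fold) and Tead4 (6.71-fold). Of 16 genes of AP-1 and related stress factors, 2 had a member near a start, Fosl1 (10.8-fold) and Mafk (10.3-fold), and 15 had a peak shared with lens there. Of 24 growth factor and receptor genes, 11 held members in the body, among them Egfr with 12 and Met with 5, and Ereg had one near a start (5.29-fold). Of 25 TGF-β and BMP genes, 9 held members in the body, 21 of them in Ltbp1, and Inhba had one near a start (10.3-fold). Of 21 genes of the cell cycle, p53 and Rb, 6 held members in the body and Cdkn2a had one within 2 kb of a start (5.07-fold).

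Hox genes, which pattern the trunk and limbs, had the most members per length of these lists. A member lay within 2 kb of a start at 18 of 39 Hox genes and over the start at 9, and the list held 85.6 members per Mb. The strongest were at Hoxb6, with H3K4me2 at 24.0-fold in control and 28.1-fold in KD cells together with Pol2 and H3K4me3, at Hoxd3 with 21.4-fold, at Hoxc8 with 21.2-fold and at Hoxb9 with 20.2-fold. Hoxb13, 47.3 kb from the nearest lens peak, had 19.1-fold with both Pol2 and H3K4me3. At Hoxc10, Hoxc11, Hoxc12 and Hoxc13, 11 members followed each other in 45.7 kb with no other control peak between them and 1 lens peak inside, and 5 had H3K4me1. Lens H3K4me2 lay within 2 kb of a start at 27 of the 39 genes.

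At lens genes, members near a start were about as frequent as over all genes. Among lens transcription factors 1 of 21 genes had a member within 2 kb of a start, Rarb at 4.26-fold, among crystallins 1 of 16, Cryba2 at 6.76-fold, and among lens fibre and epithelial genes 1 of 21. Members in the body were found at 7, 3 and 8 genes of these lists, or 33.3%, 18.8% and 38.1%, with 14.8, 48.2 and 17.1 members per Mb. The single lens fibre gene with a member near a start, Aqp5, a water channel, was next to the strongest member of all, with 29.4-fold in control and 26.5-fold in KD cells, Pol2 at 26.9-fold and H3K4me3 at 48.3-fold. This member lay 0.499 kb from a lens peak. Of 16 genes with promoters active in nearly all cells, none had a member within 2 kb of a start and all 16 had a peak also in lens there.

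Markers of other cell types were also counted. Members lay within 2 kb of a start at 5 of 18 keratinocyte and surface epithelial genes, the highest being Klf5 at 11.7-fold, at 5 of 16 muscle genes, the highest being Myh3 at 10.1-fold, and at 2 of 16 immune and blood genes, Aif1 at 8.87-fold and Lyz2 at 4.91-fold. No neuronal gene of 15 and no endothelial gene of 12 had one. Mitf, a factor of pigment cells, was the only one of 16 retina genes, with 4.38-fold at a start and 15 members in its body. Pol2 was within 2 kb of a start at 2 of the 18 keratinocyte genes, 3 of the 16 muscle genes and 2 of the 16 immune genes.

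The 10 strongest members ranged from 25.4- to 29.4-fold, and all 10 had Pol2 and H3K4me1. Besides that at Aqp5, they lay over starts of Etl4 (27-fold, 159.9 kb from a lens peak), Tnip1, an inhibitor of NF-κB signalling (26.7-fold), the inositol phosphatase gene Synj2 (26.1-fold) and the ADP-ribosyltransferase gene Parp10 (25.4-fold). One lay within 2 kb of a start of Tm4sf1, a tetraspanin-like surface protein of tumours (26.4-fold, 165 kb from a lens peak). The others lay between genes, with the nearest starts those of Arhgef2 (27.4-fold), Creb3l1 (25.9-fold), Nfat5 (25.8-fold) and Pdgfb (25.6-fold). H3K4me3 was at those of Aqp5, Arhgef2, Etl4, Tnip1, Synj2 and Parp10. Away from protein-coding starts, the highest Pol2 folds were 72.2 within 2 kb of a start of the small nucleolar RNA gene Snord118, 58.8 within 2 kb of a start of the long noncoding RNA gene Neat1, 51.8 at a pair of members that share a Pol2 peak past the end of Vmp1, and 27.6 at a member 4.80 kb from Amn1. Of the 1480 distal members with Pol2, 5.41% (4.36 to 6.68) lay within 2 kb of a noncoding start, and of those without Pol2 2.74% (2.54 to 2.94).

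Members over a start with both Pol2 and H3K4me3, the marks of an active promoter, numbered 33, at 34 genes, and 31 of them had no lens peak within 2 kb of the peak. Members were chosen for lacking a lens peak, and over all members a lens peak lay within 1 kb of 6.55%. Measured from gene starts, 26 of the 34 genes had no lens peak within 2 kb. The 34 genes were singled out after their values were seen. They included the monocyte chemokine genes Ccl2 and Ccl7, with H3K4me2 at 17.6- and 13.3-fold and Pol2 at 33.4- and 28.6-fold, which lay 52.9 and 62.4 kb from the nearest lens peak. The nucleic acid sensor gene Zbp1 had H3K4me2 at 22.8-fold in control and 23.6-fold in KD cells, the interferon-induced GTPase gene Gbp2 21.4 and 19.3, the galectin gene Lgals9 20.9 and 23.6, Lgals3bp 19.9 and 24.3, Ifi27l1 16.4 and 19.8, and the kinase gene Ikbke 9.71 and 17.0. Spp1 had 15.4-fold with Pol2 at 35.5-fold, and Msln, the gene of the surface protein mesothelin, 25.1-fold with Pol2 at 31.0-fold. The interferon group was then counted over a list of 56 interferon and innate immune genes, written after some of these names had been seen. A member lay within 2 kb of a start at 23 of the 56 and over a start at 18. Without the genes already seen, it lay within 2 kb at 11 of 44 (25%) and over a start at 7, and 34 of the 44 had a lens peak within 2 kb and 39 a control peak of any kind. Ifit3 (11.4-fold), Oas3 (8.74-fold), Oas1a (7.93-fold) and Mx1 (4.15-fold) were among these 7.

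The AP-1 word was found in the 200 bases before the start at 10 of the 34 genes, or 29.4% (16.8 to 46.2), against 3.01% (2.59 to 3.50) of the 5381 genes whose start carried a peak also in lens with Pol2 and H3K4me3, and 4.68% of all genes. The response element word GAAANNGAA was found at 9 of the 34, or 26.5% (14.6 to 43.1), against 5.35% and 5.97%. This word was added after interferon names among the 34 had been seen, so its share is a description only. Neighbouring genes such as Ccl2 and Ccl7 were counted apart. The GC-box was found at 20.6% (10.3 to 36.8), against 50.6% and 38.7%. Among other words, TEAD was at 20.6% (10.3 to 36.8), against 8.21% at the starts also in lens and 8.97% of all genes. Runx was at 17.6% (8.35 to 33.5), against 8.57% and 10.2%, both inside its interval. The Ets word CCGGAAG was at 0 of the 34 (0 to 10.2), against 11.2% and 7.70%, the latter inside its interval. The NF-κB word was found at 1 of the 34, against 2.56% and 2.55%. The last of these intervals, 0.521 to 14.9, includes both comparison values.

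Members were not spread evenly over chromosomes. Their share of the control H3K4me2 peaks was lowest on chromosomes 4 and 11, at 37.8% each, and highest on chromosome 3, at 50.4% (48.9 to 51.9), and chromosome 1, at 50.1% (48.6 to 51.5). The number of input reads per kb in control H3K4me1 islands also differed, with medians from 7.92 on chromosome 12 to 15.6 on chromosome 3. Across the 20 chromosomes both measures moved together (Pearson r = 0.70, Spearman ρ = 0.75, and r = 0.63 without chromosomes 3 and 12), as a description of points that share their libraries. In 5 Mb bins with at least 20 islands, members made up 38.0% (37.2 to 38.8) of the peaks in the quartile of lowest input and 50.4% (49.6 to 51.2) in the quartile of highest. The share of peaks near starts moved as well, from 36.2% to 23.5%, and among distal peaks alone the members' share was 55.8% and 63.1%. The medians also depend on which islands were called: chromosome 9 had 9.50 in control and 15.9 in KD cells, while the centred log2 change of input in its paired islands was 0. The part of input in the choice of members was not tested. Among the largest groups, input was 19.1 reads per kb at Cald1 and 8.66 at the group on chromosome 4, where all islands had a median of 12.8. The median over groups of 5 or more was 12.7.

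**Figure D5:**
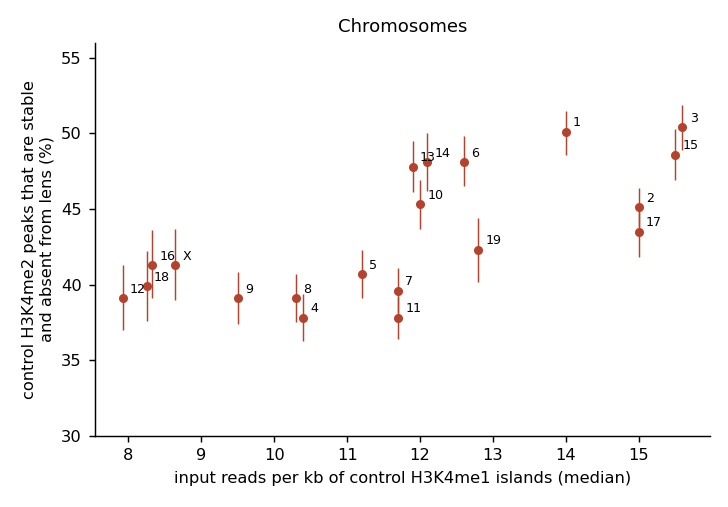
Share of control H3K4me2 peaks that were stable and absent from lens (percent, vertical axis not starting at 0, lines are 95% Wilson intervals) against the median number of input reads per kb of control H3K4me1 islands, for chromosomes 1 to 19 and X. Chromosome 12 has the lowest input, 7.92, with a share of 39.1%, and chromosome 3 the highest, 15.6, with 50.4%.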

How the data were processed

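The authors aligned ChIP-seq reads to mm9 with Bowtie and called peaks of Pax6, Pol2, H3K4me2 and H3K4me3 with MACS2 and H3K4me1 islands with SICER. In the MACS2 lists the fold enrichment and the −log10 q are the deposited values. For each SICER island, the deposited columns hold a count of ChIP reads, a count of control reads (called input reads here, although the control library is not named), a p-value, a fold and an FDR. Control and KD folds of a member come from separate lists and are given side by side, with no change read from them. The names of the control H3K4me2 peaks hint at pooled replicates, but the samples give 1 library per condition and each list was taken as 1 library. A label field names the antibodies of the Pax6 and Pol2 libraries the other way round, and titles were followed. Depth is unknown for the MACS2 libraries. RNA-seq was not analysed here.

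Overlap means 1 bp shared. Starts and gene bodies came from GENCODE vM1 (51723 protein-coding transcripts) and sequence from mm9. Older symbols were matched by RefSeq synonyms. The members, gene lists, words and named items were chosen with earlier results of these data known. Named were the 10 strongest members, the 10 largest groups, the 10 genes with most members with ties, the 5 members with the strongest Pax6 and the 5 with the strongest distal Pol2, and up to 4 genes of each list with the strongest member near a start. Of these, 1 gene and the group of members at it are not reported here. The interferon list and the GAAANNGAA and GGGANNTTC words were added after names of the active starts had been seen. Interval and word searches were tested on simulated data. Scripts ran in Python 3.11.15 with pandas 2.3.3 and NumPy 2.4.6, and matplotlib 3.10.9 drew the plots.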

Additional observations from a re-analysis of the deposited data

How the results depend on the processing

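No paired analysis was possible because each condition has 1 library and no value comes from a test. The number of members was 28870 and stayed within 1.5 times of it under each setting tried: 25905 with a −log10 q of at least 5, 24683 with at least 50% of the peak covered by KD peaks, 26979 without a lens peak within 1 kb, and 28870 with control peaks merged, since none overlap. In that order of the first 3, Pol2 was at 6.66%, 6.86% and 5.74% of the members. H3K4me1 was at 79.6% with the −log10 q of at least 5. With stricter lists of the marks, Pol2 was at 5.33% and H3K4me1 at 76.1%. With marks within 1 kb counted, Pol2 was at 8.13%, H3K4me3 at 1.65% and H3K4me1 at 78.5%. With fold enrichment at or above the median, they were at 13.4%, 0.859% and 88.9%. Members at promoters were 3.67% within 1 kb and 10.5% with the starts of all transcripts. Members in groups of 5 or more were 2.97% at 5 kb and 27.8% at 25 kb. The AP-1 share of distal members was 10.6% within 100 bp of the summit and 30.1% around the middle. Wider windows and distances take in more by construction, and other causes were not tested. One library per condition, unknown depth and lists that stop at a threshold limit every value here.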

Other observations

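Genes with at least 8 members were also ordered by members per 100 kb of gene body with 2 kb added to either end, a view chosen after the values were seen. The densest was Ifi47, an interferon-induced GTPase gene, with 8 members and 32.8 per 100 kb, in a group of 12 members that also covers Tgtp2. It was followed by Il1rl1, the receptor of interleukin 33, with 20.1 and no peak also in lens, and Fhl2, a LIM domain cofactor, with 17.8 and none either. The secreted protease gene Htra1 (14.9), Igfbp7 (12.7), the integrin gene Itgb3 (12) and Loxl2 (11) were also among the 15 densest.

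Vmp1 held 14 members, 13.5 per 100 kb. The microRNA gene Mir21 lies on the same strand within its annotated end, at chr11:86397569-86397660, and 4 members lay within 10 kb of it, all with Pol2, the nearest at 4 kb. Across Wisp1, a secreted matricellular protein gene, and Tg, the span of a group of 13 members held 18 Pol2 peaks, and 9 of the members had Pol2.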
